A study of Mus musculus with 12 samples.

Results

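The genes described here encode 9 proteins of the Polycomb system and of its reversal: the enzymes Ezh1 and Ezh2, their partners Eed, Suz12 and Jarid2, the PRC1 proteins Rnf2, Cbx2 and Cbx8, and the demethylase Kdm6b. The question was whether the chromatin at the genes for the writers, readers and erasers of H3K27me3 differed between young and old cells. The members were all regions in the tables of 2 histone marks that overlapped a gene body, extended by 20 kb on each side, by at least 1 bp. This gave 28 of the 31617 H3K27ac regions and 11 of the 28047 H3K27me3 regions. Mouse mesenchymal stem cells (MSCs), the stromal precursors of bone, cartilage and fat tissue, were profiled by CUT&RUN. In this assay a nuclease tethered to an antibody cuts out the DNA around a histone mark, and the released fragments are sequenced. The young group came from mice of 3 to 5 months and the old group from mice of 18 to 22 months, and all cells were cultured at 2% oxygen. There were 3 libraries for each mark and age, 12 in all, and the cells of a sample were divided between the antibodies. The labels gave no genotype, strain, sex or treatment, and did not say whether the replicates were separate animals, so p-values measure the spread between these samples, which may be technical. The labels also gave no sequencing batch or date.

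Polycomb proteins keep genes silent during development and in differentiated cells. The PRC2 complex, with Ezh1 or Ezh2 as its catalytic subunit and Eed and Suz12 as its core partners, places H3K27me3, while PRC1 proteins with a chromobox such as Cbx2 and Cbx8 bind that mark and bring the ubiquitin ligase Rnf2. Kdm6b removes the methyl groups again, and H3K27ac, the acetylated form of the same residue, cannot coexist with H3K27me3 on the same histone tail. H3K27ac marks active promoters and enhancers, so the tables show in which of these opposed states each gene of the machinery lay.

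Promoter sequences were taken from RefSeq (GRCm38.p6), from 250 bases before to 50 bases after the transcription start site (TSS), for 7 of the 9 genes, and Cbx2 and Kdm6b had no entry. The CG dinucleotide was counted on the printed strand, which equals its count on the other strand, because Polycomb targets and active promoters in mammals both tend to be rich in it. The 4 promoters below are printed with every CG in capitals. At Ezh2 and Eed, old and young samples did not overlap in the H3K27ac region over the TSS. The same held for 14.5% of all H3K27ac regions, and neither difference passed the test described below. Rnf2 lies next to the H3K27me3 region with the largest log2 fold change of the 11, and Cbx8 inside a broad H3K27me3 region.
Ezh2, chr6:47594981-47595280, minus strand: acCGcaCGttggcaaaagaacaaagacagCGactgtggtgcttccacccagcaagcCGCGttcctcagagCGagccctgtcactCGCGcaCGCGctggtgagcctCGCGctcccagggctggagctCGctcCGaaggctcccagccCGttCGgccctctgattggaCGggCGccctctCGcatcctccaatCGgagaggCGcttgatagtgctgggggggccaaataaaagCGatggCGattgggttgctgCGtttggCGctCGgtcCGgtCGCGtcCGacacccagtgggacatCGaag
Eed, chr7:89980927-89981226, minus strand: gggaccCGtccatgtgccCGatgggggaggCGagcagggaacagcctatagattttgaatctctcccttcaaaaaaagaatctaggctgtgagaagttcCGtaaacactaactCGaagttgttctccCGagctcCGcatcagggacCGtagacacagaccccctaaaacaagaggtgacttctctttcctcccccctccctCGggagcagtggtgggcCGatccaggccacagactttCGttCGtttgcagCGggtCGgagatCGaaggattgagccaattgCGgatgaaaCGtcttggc
Rnf2, chr1:151500942-151501241, minus strand: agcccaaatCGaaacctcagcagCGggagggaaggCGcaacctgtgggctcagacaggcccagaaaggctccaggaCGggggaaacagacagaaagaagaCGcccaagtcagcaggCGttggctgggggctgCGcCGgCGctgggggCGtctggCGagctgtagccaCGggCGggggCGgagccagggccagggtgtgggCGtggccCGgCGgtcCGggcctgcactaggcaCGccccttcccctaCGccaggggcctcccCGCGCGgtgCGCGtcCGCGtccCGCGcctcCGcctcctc
Cbx8, chr11:119040864-119041163, minus strand: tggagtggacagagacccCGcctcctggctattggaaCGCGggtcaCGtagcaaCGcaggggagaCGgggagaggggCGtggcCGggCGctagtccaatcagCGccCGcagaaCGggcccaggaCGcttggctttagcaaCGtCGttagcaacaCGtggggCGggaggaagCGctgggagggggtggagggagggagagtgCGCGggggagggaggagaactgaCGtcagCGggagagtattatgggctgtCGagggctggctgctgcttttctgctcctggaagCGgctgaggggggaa
These promoters held 31, 17, 30 and 24 CG, against a median of 7 over 32851 promoters of the same length. At least as many were found in 10.6% of all promoters for Ezh2, 31.4% for Eed, 11.7% for Rnf2 and 20.0% for Cbx8. The other matched promoters were also CG-rich, with 23 in Ezh1, 41 in Suz12, and 24 and 23 in the 2 entries of Jarid2. The Cbx8 promoter, in the opposite chromatin state, thus lay within the range of the others in CG number.

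The H3K27ac libraries held 2750953 to 5541429 mapped reads and the H3K27me3 libraries 3622108 to 9947515, and old replicate 2 was the shallowest in both marks. The share of reads inside regions was 33.4% to 41.4% for H3K27ac without separation of the ages, and for H3K27me3 it was 62.3% to 66.6% in young and 53.8% to 60.8% in old libraries. The TSS of 10 of 10 MSC marker genes, such as Pdgfra and Ly6a, lay in an H3K27ac region, as did that of 1 of 11 matched marker genes of blood, endothelial, red and epithelial cells, namely Cd14. These were bulk libraries, so a different share of cells with a mark and a different level of the mark per cell cannot be told apart. Regions were listed by the authors' caller, and a place without a region is not thereby shown to lack the mark.

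The genes fell into opposed states. The TSS of Ezh1, Ezh2, Eed, Suz12, Jarid2, Rnf2 and Kdm6b, 7 of 9, lay in an H3K27ac region and in no H3K27me3 region. The TSS of Cbx2 and Cbx8 lay in an H3K27me3 region and in no H3K27ac region. Of 21864 protein-coding genes, 47.5% had H3K27ac alone at the TSS, 25% H3K27me3 alone, 3.25% both marks and 24.3% neither. Some of these states depended on the 500 bp steps in which regions were drawn. With 1 kb allowed on each side of the TSS, Rnf2 had both marks, and the other 8 members gained no mark. A wider window can add a mark but not remove one. Widening therefore could not test the state of Cbx2, whose H3K27me3 region ends 0.038 kb past the TSS.

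All 7 acetylated genes had an H3K27me3 region upstream of the TSS within 20 kb and none inside the gene body. Among all 10384 genes with H3K27ac alone at the TSS, 48.2% had such a region within 20 kb upstream and 43.1% had it upstream but not in the body. Among 23 other Polycomb genes with that state, from a list described below, the shares were 60.9% and 52.2%. The distance from the TSS to the near edge of the H3K27me3 region was 0.546 kb for Rnf2, 1.04 kb for Ezh1, 1.97 kb for Ezh2, 6.11 kb for Suz12, 6.83 kb for Kdm6b, 15.0 kb for Eed and 18.3 kb for Jarid2. These neighbouring regions ranged from 2.5 kb at Eed to 53.5 kb at Ezh2. H3K27ac regions covered 21.7% of the body of Jarid2, the longest of these genes, and 65.6% of that of Suz12, with the other 5 acetylated genes between. Regions of the opposite mark overlapped by 1.5 kb at Kdm6b and by 1.0 kb at Rnf2 and Eed, and a 4.0 kb H3K27ac region upstream of Ezh1 lay wholly inside the 23 kb H3K27me3 region there. Ezh1 had a further H3K27me3 region of 5 kb downstream of the gene, which shares 1.5 kb with an H3K27ac region. The Suz12 H3K27me3 region also overlapped an H3K27ac region by 1.0 kb, at an H3K27ac region outside the window of the gene.

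**Figure D1:**
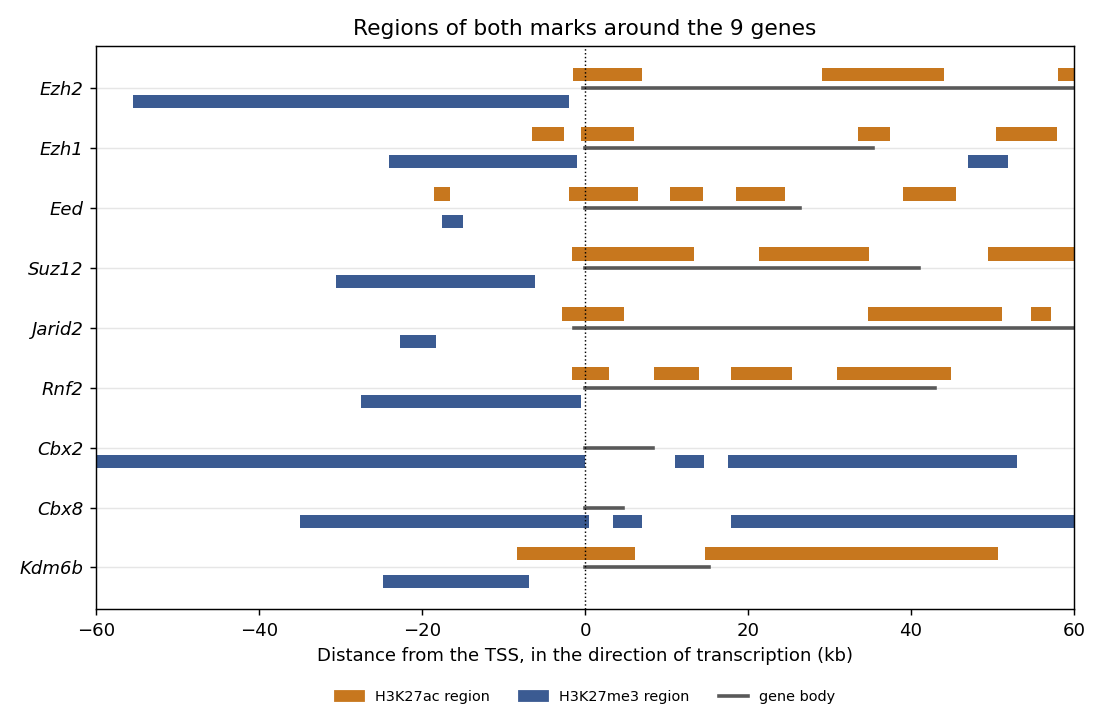
Regions of H3K27ac (orange) and H3K27me3 (blue) around the 9 genes, placed by their distance from the TSS in kb, with transcription to the right. The gene body is a grey line. Only regions that reach the gene body extended by 20 kb are drawn, and these only within 60 kb of the TSS. H3K27ac regions sit on the TSS of 7 genes, with H3K27me3 regions upstream of it. Within the 20 kb window, Cbx2 and Cbx8 have H3K27me3 regions only.

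Cbx2 and Cbx8 are neighbours on chromosome 11 and shared the same 3 H3K27me3 regions. A region of 135 kb (chr11:118888001-119023000), which also held the TSS of Rbfox3 and Enpp7, ended 0.038 kb inside Cbx2. A region of 3.5 kb (chr11:119034001-119037500) covered the end of Cbx8, and a region of 35.5 kb (chr11:119040501-119076000) reached from 0.468 kb inside Cbx8 far upstream of it. The body of Cbx2 was left almost without a region: 0.469% of it was covered, against 35.7% of Cbx8. The 11 kb between the regions, over Cbx2, had a GC content of 53.8% and 24.3 CG per kb, and the 135 kb region had 50.8% and 15.2. No H3K27ac region lay within 20 kb of either gene.

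Levels were compared between regions as a density, the scaled reads per kb of region per 1000000 mapped reads. At the TSS, Kdm6b had the highest H3K27ac density of the 7 genes, 2.15 ± 0.358 (SD, n = 6 libraries of both ages), which lay at percentile 99.3 of all H3K27ac regions. Rnf2 followed with 1.51 ± 0.229 at percentile 88.4, and in 5 of its 6 libraries it exceeded every value of the next gene, Jarid2. The density of Jarid2 was 1.17 ± 0.155, that of Eed 1.14 ± 0.162, that of Ezh2 1.11 ± 0.155 and that of Suz12 1.05 ± 0.126. Among these 4 genes, neighbours in the order differed by less than their spread. Ezh1, the lowest at 0.895 ± 0.228, overlapped Suz12. A density averages over regions of unlike length, from 4.5 kb at Rnf2 to 15 kb at Suz12. For H3K27me3, the region over the TSS of Cbx8 had 2.35 ± 0.35, at percentile 99.8 of its table, and all 6 libraries exceeded every value of the region over the TSS of Cbx2, 1.39 ± 0.0787 at percentile 95.1.

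Old and young samples were compared with limma over all regions of a table, with Benjamini-Hochberg adjustment and a region called at an adjusted p under 0.05. Of the 28 H3K27ac regions at the 9 genes, 0 were called, where 0.0822% of all H3K27ac regions were called. Of the 11 H3K27me3 regions, 0 were called, where 0.488% of all regions were called. At an unadjusted p under 0.05 there were 4 H3K27ac regions, 2 higher and 2 lower in old samples (14.3%, against 9.6% of all regions), and 1 H3K27me3 region, higher in old samples (9.09%, against 13.9%). The ages did not overlap in 4 H3K27ac regions (14.3%, against 14.5% of all regions) and in 1 H3K27me3 region (9.09%, against 19.1%). The shares at the genes of the machinery were therefore close to or below those of the tables, apart from the 4 H3K27ac regions at the unadjusted threshold, where 1 region more or less moves the share by several points.

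The direction was mixed too. In H3K27ac, 15 of the 28 regions were higher and 13 lower in old samples, with a median log2 fold change of old to young of 0.05, against -0.0028 over all regions. In H3K27me3, 5 regions were higher and 6 lower, with a median of -0.05, against -0.0077. On the signal as deposited, which is not scaled between libraries inside regions, the median over all regions shifted to -0.12 for H3K27ac and -0.13 for H3K27me3. On that scale 9 of the 28 and 2 of the 11 member regions were higher in old samples, with medians of -0.06 and -0.17. The 95% interval of the log2 fold change lay within 1 of zero, in either direction, for 21 of the 28 H3K27ac regions and for 11 of the 11 H3K27me3 regions. Member regions held 0 to 383 reads in an H3K27ac library and 5 to 1974 in an H3K27me3 library.

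**Figure D2:**
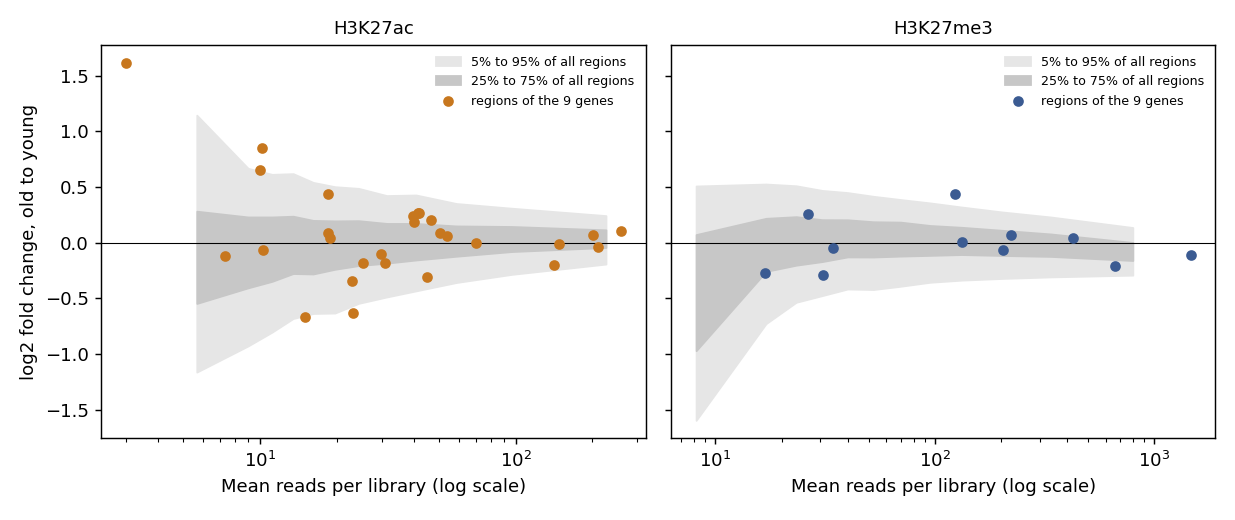
Log2 fold change of old to young against the mean reads per library (log axis) for the regions of the 9 genes (points), over grey bands that hold the middle 50% and 90% of all regions of the mark at that depth. The widest point, 1.62, is an H3K27ac region with a mean of 3 reads, and the H3K27me3 points stay between -0.29 and 0.44.

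Ezh2, the main methyltransferase of proliferating cells, had a slightly higher H3K27ac density over its TSS in old samples. The 8.5 kb region (chr6:47588001-47596500) had densities of 1.08, 1.12 and 0.832 in young replicates 1 to 3 and of 1.17, 1.30 and 1.17 in old replicates 1 to 3. Every old value was above every young value, but the log2 fold change of 0.27 (95% interval -0.12 to 0.66) did not pass the test (limma, adjusted p = 0.70). It was 0.14 without young replicate 3, the lowest sample. The 5 H3K27ac regions of the gene summed to 66.6 ± 4.61 scaled reads per 1000000 in the young and 69.8 ± 1.24 in the old libraries (SD, n = 3), and these sums overlapped. Within the gene, a region of 1 kb that the authors' table listed for old samples alone (chr6:47553501-47554500) held 0, 2 and 1 reads in young and 6, 8 and 1 in old libraries, with a log2 fold change of 1.62 (limma, unadjusted p = 0.0285, adjusted p = 0.45). At such counts, close to the floor of 3 reads, the ages overlapped. The broad H3K27me3 region upstream of Ezh2 (chr6:47597001-47650500) was nearly level, with densities of 0.954, 1.03 and 1.05 in young and 0.985, 1.07 and 1.07 in old samples. Its log2 fold change was 0.04 (95% interval -0.15 to 0.23, limma, adjusted p = 0.88).

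Ezh1, the related methyltransferase of resting cells, showed no separation at its TSS. The 6.5 kb H3K27ac region (chr11:101220501-101227000) had densities of 0.754, 1.24 and 0.860 in young and 0.797, 1.09 and 0.627 in old samples, in partial overlap. The log2 fold change was -0.18 (95% interval -0.69 to 0.33, limma, adjusted p = 0.87), and its sign turned when young replicate 2 or old replicate 3 was left out. The H3K27ac region inside the H3K27me3 region upstream (chr11:101229001-101233000) had densities of 2.00, 1.66 and 0.946 in young and 1.15, 0.983 and 0.701 in old samples. Young replicate 3 lay among the old values and the other young values above them, and the log2 fold change was -0.63 (limma, unadjusted p = 0.0310, adjusted p = 0.46). The surrounding 23 kb H3K27me3 region (chr11:101227501-101250500), which holds the TSS of Ramp2, overlapped between the ages and had a log2 fold change of 0.06 (95% interval -0.24 to 0.37, limma, adjusted p = 0.89).

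Eed, the PRC2 subunit that binds H3K27me3, lay in the other direction from Ezh2 at its TSS. The 8.5 kb H3K27ac region (chr7:89974501-89983000) had densities of 1.38, 1.22 and 1.20 in young and 1.10, 0.925 and 1.02 in old samples. Every old value was below every young value, but the log2 fold change of -0.31 (95% interval -0.69 to 0.07) did not pass the test (limma, adjusted p = 0.63). A second region inside the gene, of 4 kb (chr7:89966501-89970500), had densities of 1.31, 0.866 and 0.781 in young and 0.648, 0.786 and 0.382 in old samples. Old replicate 2 lay just above young replicate 3, and the log2 fold change was -0.67 (limma, unadjusted p = 0.0498, adjusted p = 0.52). A 2 kb region upstream (chr7:89997501-89999500), which shares 1.0 kb with the H3K27me3 region there, went the other way, with densities of 0.898, 0.433 and 1.15 in young and 1.20, 2.16 and 1.27 in old samples. The ages did not overlap in it, and the log2 fold change was 0.85 (limma, unadjusted p = 0.0351, adjusted p = 0.48) at a mean of 10.2 reads. It was 0.50 without young replicate 2 and 0.60 without old replicate 2, and the unadjusted p was 0.081 with edgeR (RLE) and 0.15 with DESeq2. The H3K27me3 region (chr7:89996001-89998500) held 5 to 28 reads and had a log2 fold change of -0.27 with an interval of -0.96 to 0.42 (limma, adjusted p = 0.77).

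Suz12, which holds PRC2 together, was level at its TSS. The 15 kb H3K27ac region there (chr11:79991501-80006500) had densities of 0.958, 1.25 and 0.943 in young and 1.14, 0.944 and 1.04 in old samples. The ages overlapped fully, and the log2 fold change was -0.0052 (95% interval -0.33 to 0.32, limma, adjusted p = 0.995). A 13.5 kb region inside the gene had densities of 0.544, 0.748 and 0.633 in young and 0.753, 0.786 and 0.774 in old samples. All old values were higher there, by a log2 fold change of 0.27 that did not pass the test (limma, adjusted p = 0.70). The upstream H3K27me3 region (chr11:79962501-79987000) had a log2 fold change of -0.07 (95% interval -0.31 to 0.18, limma, adjusted p = 0.85).

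Jarid2, an accessory subunit that helps bring PRC2 to its targets, had an H3K27ac region of 7.5 kb over the TSS (chr13:44728001-44735500). Its densities were 1.26, 0.923 and 1.05 in young and 1.30, 1.31 and 1.19 in old samples. Young replicate 1 lay among the old samples, and the log2 fold change was 0.23 (95% interval -0.17 to 0.64, limma, adjusted p = 0.75). It was 0.13 without young replicate 2. The other 4 H3K27ac regions, 3 inside this long gene and 1 of 52.5 kb that ran past its end, had log2 fold changes from -0.06 to 0.66, the last in a region with 1 read in young replicate 2. The H3K27me3 region upstream (chr13:44708001-44712500), with 13 to 44 reads, had a log2 fold change of 0.25 (95% interval -0.27 to 0.78, limma, adjusted p = 0.71).

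**Figure D3:**
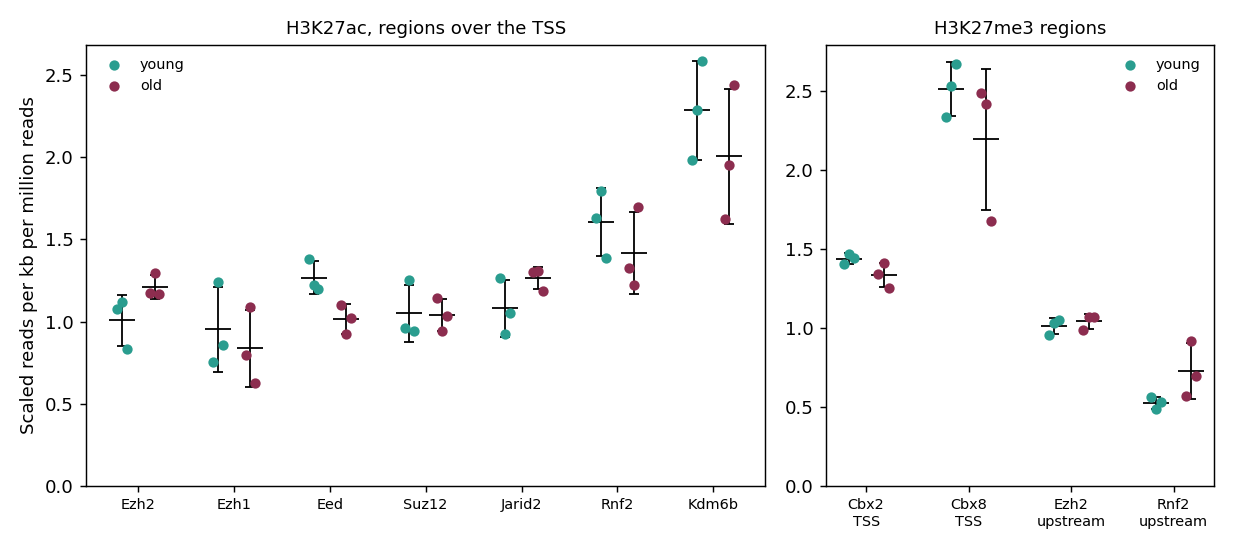
Density of the H3K27ac regions over the TSS of 7 genes (left) and of 4 H3K27me3 regions (right), in scaled reads per kb per 1000000 reads; each point is a library, bars are the mean and SD of 3 libraries. Every old value is above every young value at Ezh2 and below at Eed in H3K27ac, and above in the H3K27me3 region upstream of Rnf2. None of these regions was called.

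Rnf2, the ubiquitin ligase of PRC1, held the H3K27me3 region with the smallest p of the 11. This region of 27 kb (chr1:151501501-151528500) starts 0.546 kb upstream of the TSS and had densities of 0.560, 0.488 and 0.528 in young and 0.570, 0.916 and 0.693 in old samples. Every old value was above every young value, although old replicate 1 exceeded young replicate 1 only slightly, and the density was low, at percentile 19.9 of all H3K27me3 regions. The log2 fold change was 0.44 (95% interval 0.12 to 0.75), with limma's unadjusted p = 0.00898 and adjusted p = 0.18. It was 0.26 without old replicate 2, the shallowest library and the highest value, and 0.60 without old replicate 1 (limma, adjusted p = 0.072, against 0.072 to 0.48 over all alternatives). The share of H3K27me3 reads inside regions was lower in every old library than in every young library. Its part in this result was not tested.

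H3K27ac over the TSS of Rnf2 (chr1:151498001-151502500), which shares 1.0 kb with that H3K27me3 region, had densities of 1.63, 1.80 and 1.39 in young and 1.33, 1.22 and 1.70 in old samples. The ages overlapped, and the log2 fold change was -0.18 (95% interval -0.63 to 0.27, limma, adjusted p = 0.85). Leaving out 1 library moved it between -0.08 (without old replicate 2) and -0.31 (without old replicate 3), and it was -0.10 without young replicate 2 and -0.28 without young replicate 3. The 3 other H3K27ac regions over the body or the end of the gene had log2 fold changes of 0.08, -0.34 and 0.08, in overlap. Their sum with the TSS region was 27.1 ± 1.76 scaled reads per 1000000 in the young and 26.3 ± 2.60 in the old libraries (SD, n = 3).

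The H3K27me3 regions at Cbx2 and Cbx8, chromobox proteins that read the mark, had slightly lower densities in old samples, within the spread of the replicates. The 135 kb region that ends at the TSS of Cbx2 covers 0.469% of that gene, so its values describe the domain rather than Cbx2. Its densities were 1.40, 1.47 and 1.44 in young and 1.34, 1.41 and 1.25 in old samples. Old replicate 2 lay between the young values, and the log2 fold change was -0.11 (95% interval -0.27 to 0.05, limma, adjusted p = 0.56). The region over the TSS of Cbx8 had densities of 2.33, 2.53 and 2.67 in young and 2.49, 2.42 and 1.68 in old samples. Only old replicate 3 lay below the young range, and the log2 fold change of -0.21 (95% interval -0.47 to 0.04, limma, adjusted p = 0.45) was -0.03 without that library. Without it the value of the Cbx2 region was -0.06. Old replicate 3 was also the library with the lowest share of H3K27me3 reads inside regions, 53.8%, and the part of this in the result was not tested. On the signal as deposited, the regions over the TSS of Cbx2 and Cbx8 had log2 fold changes of -0.23 and -0.34 (limma, adjusted p = 0.24 and 0.20). On the scaled signal, the 2338 H3K27me3 regions with the most reads had a median of -0.08. The short region over the end of Cbx8 had a log2 fold change of -0.29 (95% interval -0.78 to 0.19, limma, adjusted p = 0.62), and the 3 regions summed to 288 ± 10.5 scaled reads per 1000000 in the young and 262 ± 26.6 in the old libraries (SD, n = 3).

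Kdm6b, the H3K27 demethylase, carried the strongest acetylation of these genes at both ages. The 14.5 kb H3K27ac region over its TSS (chr11:69407501-69422000) had densities of 1.98, 2.29 and 2.59 in young and 1.62, 1.95 and 2.44 in old samples. The ages overlapped in most of their range, and the log2 fold change was -0.20 (95% interval -0.47 to 0.07, limma, adjusted p = 0.68). It moved with single libraries, to -0.06 without old replicate 1, -0.11 without young replicate 3 and -0.35 without old replicate 3. The 36 kb region that begins at the end of the gene, and also holds the TSS of Chd3, Cyb5d1, Naa38 and Tmem88, had a log2 fold change of 0.06 (95% interval -0.14 to 0.27, limma, adjusted p = 0.89). The upstream H3K27me3 region (chr11:69420501-69438500) had densities of 0.905, 1.01 and 0.930 in young and 0.928, 1.03 and 0.898 in old samples. Its log2 fold change was 0.0022 (95% interval -0.26 to 0.26, limma, adjusted p = 0.996).

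**Figure D4:**
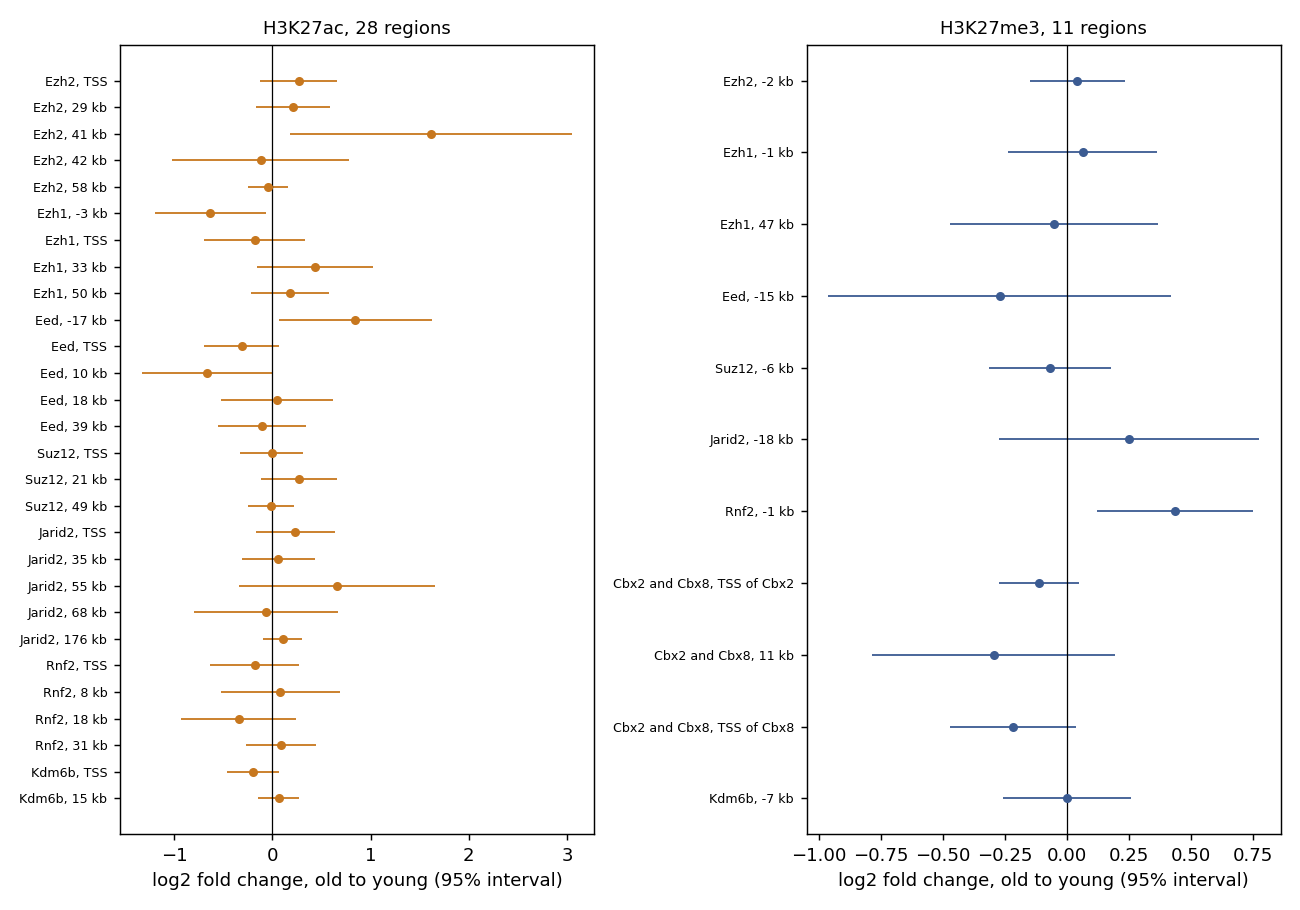
Log2 fold change of old to young with its 95% interval for the 28 H3K27ac and 11 H3K27me3 regions, named by gene and by the distance in kb of the near edge from the TSS (for the short region shared by Cbx2 and Cbx8, from that of Cbx2); the panels differ in scale. The intervals of 4 H3K27ac regions and of 1 H3K27me3 region, upstream of Rnf2, do not cross zero.

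Further genes of the pathway gave no call either. A list of 30 other Polycomb genes, of PRC2 (such as Rbbp4 and Mtf2), PRC1 (such as Ring1 and Bmi1), the demethylase Kdm6a and the deubiquitinase PR-DUB (Bap1, Asxl1, Asxl2), held 84 H3K27ac and 49 H3K27me3 regions, of which 0 and 0 were called. At an unadjusted p under 0.05 there were 3 H3K27ac regions, all higher in old samples, and 6 H3K27me3 regions, 2 higher and 4 lower. These were 3.57% of the H3K27ac regions of the list, against the 9.6% of the table, and 12.2% of the H3K27me3 regions, against 13.9%. At the TSS, 23 of the 30 genes had H3K27ac alone, Epop, Cbx7 and Phf19 had H3K27me3 alone, Pcgf5 and Phc2 had both, and Bcor had neither. With 1 kb allowed on each side, 17 of the 30 had H3K27ac alone and 9 had both marks (30%, against 7.46% of all protein-coding genes). At the TSS itself, H3K27me3 alone was found at 3 chromobox genes of the members and the list, Cbx2, Cbx7 and Cbx8. The same held for the PRC2 partners Epop and Phf19, while the chromobox gene Cbx6 had H3K27ac alone.

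The smallest p among the H3K27me3 regions of that list belonged to a 21 kb region at the end of Bmi1 (chr2:18686001-18707000), the PRC1 partner of Rnf2. Most of this region lies past the end of Bmi1, and it holds the TSS of Spag6. Its densities were 2.41, 2.37 and 2.85 in young and 2.21, 1.91 and 1.54 in old samples, and the ages did not overlap. The log2 fold change was -0.44 (95% interval -0.69 to -0.19, limma, adjusted p = 0.090), the same size as at Rnf2 in the other direction. This region, and those of the list that hold no TSS of their gene, were named after their values were seen. It passed the threshold with edgeR on the recovered reads (adjusted p = 0.044) and when old replicate 1 or old replicate 2 was left out (limma, adjusted p = 0.0498 and 0.043). Over the 15 alternatives its adjusted p ran from 0.028 to 0.38, with 5 calls. Of the regions with an unadjusted p under 0.05, 2 H3K27me3 regions were higher in old samples, both without overlap of the ages. A 2 kb region downstream of Aebp2, a PRC2 partner, had a log2 fold change of 0.83 at a mean of 11.5 reads (limma, adjusted p = 0.21). A 17.5 kb region upstream of Bap1, which holds the TSS of Sema3g, had a log2 fold change of 0.42 (limma, adjusted p = 0.23). The lower regions were those at Bmi1, a region upstream of Pcgf1 with a log2 fold change of -0.35 (limma, adjusted p = 0.20), and 2 at Phf19. The region downstream of Phf19, which holds the TSS of Cutal, had a log2 fold change of -0.23 without overlap of the ages (limma, adjusted p = 0.32). The H3K27me3 region over the TSS of Phf19 fell short as well, with 1.76 ± 0.154 in the young and 1.41 ± 0.230 in the old libraries (SD, n = 3) and a log2 fold change of -0.32 (limma, adjusted p = 0.24). The regions over Epop, Phc2 and Cbx7 had log2 fold changes of -0.14, -0.12 and -0.14 (limma, adjusted p = 0.51, 0.57 and 0.69).

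In H3K27ac, a 2 kb region downstream of Cbx7 with a mean of 4.33 reads parted the ages with a log2 fold change of 1.24 (limma, adjusted p = 0.50). The ages did not overlap in 5.95% of the H3K27ac regions of the list, against 14.5% of the table. They overlapped in the other regions with an unadjusted p under 0.05. A 63.5 kb region upstream of Pcgf1, which holds 5 TSS, had a log2 fold change of 0.19 (limma, adjusted p = 0.48). A 6 kb region inside Bcor had 0.72 (limma, adjusted p = 0.51). The TSS regions of the list with the smallest p were those of Pcgf2, Mtf2, Pcgf1 and Phf1. The 71 kb region of Pcgf2 had a log2 fold change of 0.17 (95% interval -0.0065 to 0.35, limma, adjusted p = 0.54), and holds 4 TSS in all. Mtf2, a PRC2 partner that binds CG-rich DNA, had 1.64 ± 0.176 in the young and 1.28 ± 0.145 in the old libraries (SD, n = 3), with a log2 fold change of -0.35 (limma, adjusted p = 0.68). Pcgf1 had a log2 fold change of -0.56 with an interval of -1.33 to 0.22, and Phf1 of 0.13 with an interval of -0.07 to 0.33. Kdm6a, the other H3K27 demethylase, was level, with 1.13 ± 0.129 in the young and 1.12 ± 0.133 in the old libraries (SD, n = 3).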

How the data were processed

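H3K27ac and H3K27me3 were measured by CUT&RUN in MSCs of young and old mice, 3 libraries per mark and age. For each mark the authors deposited 1 table of signal per region and library on mm10 (GRCm38), and per the labels Bowtie2 and Picard were used; versions and the peak caller are not given in the sources used here. The deposited signal was reads per 1000000 mapped reads divided by a constant 0.5 kb and not by region length, so whole reads were recovered for 100% of values (within 0.01 read); 0 sample columns were left unused. Signal was scaled by the median of ratios (RLE), and log2(signal + 0.5) was fitted with limma 3.58.1 (R 4.3.3; variance trend, robust moderation, two-sided, all regions, no filter on low values, no replicate block). Such fold changes understate those of low regions. Alternatives used edgeR 4.0.16 and DESeq2 1.42.0 on the recovered reads, other pseudocounts, a minimum of 10 mean reads and the omission of each library. The fits were tested on simulated data, with large changes placed only in regions with many reads. That test does not cover small changes or regions with few reads. Genes came from GENCODE vM21 (basic, protein-coding) and sequences from RefSeq; tables were joined with Python 3.11.15 and pandas 2.3.3. Densities are scaled reads per kb per 1000000 reads. Named regions were those over, or nearest to, each TSS of the 9 genes; member regions called or with unadjusted p under 0.05 and no overlap of ages; and called regions of other Polycomb genes with their 4 TSS regions of smallest p per mark. Other regions with unadjusted p under 0.05 were named after their values were seen. The members and lists were chosen with earlier results of these data known. The yeast DNA added to the samples was not analysed here. The publication supplied with the series does not report these libraries and served for style alone. The state of 1 gene of the list of other Polycomb genes is not reported here.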

Additional observations from a re-analysis of the deposited data

How the results depend on the processing

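Under every alternative tried, 0 member regions of either mark were called. The calls over all regions moved: for H3K27ac from 26 to 105 on the signal as deposited, 96 with edgeR (RLE), 94 with edgeR (TMM), 6 with DESeq2, 14 and 63 with a pseudocount of 0.1 and 2, and 0 without trend and robust moderation (limma, 2661 at an unadjusted p under 0.05), and for H3K27me3 from 137 to 774, 394, 382, 87, 71 (pseudocount 0.1) and 35 in the same order, and to 86 with at least 10 mean reads. Leaving out 1 library gave 2 (without young replicate 1) to 45 (without old replicate 1) H3K27ac calls and 10 (without young replicate 3) to 313 (without old replicate 2) H3K27me3 calls. The deviations of same-numbered samples correlated by -0.054 to 0.066 in H3K27ac and by -0.078 to 0.043 in H3K27me3. These values gave no clear sign of a pairing by replicate number, but they cannot exclude one, because many regions hold few reads. With a replicate block there were 81 and 309 calls, and 0 at the members. Of the other Polycomb regions, the H3K27me3 count went from 0 to 1 on the signal as deposited and with edgeR (RLE or TMM), and from 0 to 2 over the omissions of a library, with Bmi1 called in each and Pcgf1 added without old replicate 2. The log2 fold change over the Ezh1 TSS turned to 0.0197 without young replicate 2 and 0.0016 without old replicate 3, within a range of -0.379 (without old replicate 2) to 0.0197 over the omissions, and that over the Suz12 TSS to 0.0479, 0.0405 and 0.0233 with edgeR (RLE), edgeR (TMM) and DESeq2, 0.124 without young replicate 2 and 0.0622 without old replicate 2, within a range of -0.0762 to 0.124. The cause was not tested. Regions with few reads had the widest intervals.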

Other observations

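The H3K27ac regions over the TSS of the 7 acetylated genes showed no clear common movement across samples. A library held 14 to 228 reads in such a region, so a weak common movement could be missed. Over the 6 libraries, which share their depth and scaling, the 21 pairwise Pearson correlations of log2(scaled signal + 0.5) ran from -0.67 to 0.53 with a median of -0.06, and 9 were positive. The genes whose TSS region was most like that of Ezh2 over the same 6 libraries, among 8377 TSS regions, were Armc6 (r = 0.997), Hes6 (r = 0.994) and Cela1 (r = 0.981). With 6 points, 111 regions reached an r above 0.90, so this is given as a description.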
